A study of Mus musculus with 4 samples.

Results

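The comparison described here set the cochlea of diphtheria toxin (DT)-treated Prestin-hDTR mice against the cochlea of untreated Prestin-hDTR mice. It rested on 2 of the 4 arrays of the series, those labelled OHC-TRECK DT(-) and OHC-TRECK DT(+), and on 24229 of the 39429 probes, those well above background on both arrays. The probes stood for 15552 of the 22554 genes with a RefSeq symbol on the array, each given by the 1 probe with the highest mean level over the 4 arrays. OHC-TRECK is the name of the toxin receptor-mediated cell knockout line, in which the promoter of Slc26a5, the gene for the outer hair cell motor protein prestin, drives a modified human HB-EGF, the receptor for DT. Only 1 transgenic line was carried through, on the B6J background, and the array had no probe for the transgene. The untreated group (OHC-TRECK DT(-)) carried the transgene and received no toxin according to its treatment label. The treated group (OHC-TRECK DT(+)) received 50 μg/kg of DT 7 days before dissection. The 2 other arrays held wild-type (WT) B6J cochleae, untreated and given the same dose. Mice were 5 weeks old, and each group was the pooled cochlear RNA of 8 mice, 4 females and 4 males, hybridised to 1 array. There was therefore no replicate of any group, no error could be set on any value, and no test was run. A gene was called changed where the treated array lay 2-fold or more above or below the untreated array.

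Outer hair cells sit in rows along the cochlear duct and amplify sound by changing length through prestin, while inner hair cells pass the signal to the auditory nerve. Efferent nerve fibres damp outer hair cells through a nicotinic acetylcholine receptor made of the Chrna9 and Chrna10 subunits. Mouse HB-EGF binds DT poorly, so that a mouse cell takes up the toxin only where it bears the human receptor, and inside the cell the toxin blocks protein synthesis by modifying elongation factor 2 (Eef2). Dying hair cells in the mammalian cochlea are cleared by supporting cells and macrophages, and the epithelium closes over the gap.

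Levels are log2 of the probe signal over the 75th percentile of all probes of its array, so that a level of 0 is that percentile and a step of 1 is 2-fold. A level cannot be compared between different genes, since each probe has its own brightness. All 4 arrays lay on 1 slide. Between 24509 and 27822 probes were well above background on an array, with the fewest on the treated Prestin-hDTR array and the most on its untreated control. The lowest level that passed was -6.39 on the untreated array and -5.44 on the treated array. Dim genes could therefore enter the comparison more easily as higher than as lower. Repeated spots of 1 probe had a median SD of 0.063 to 0.071 (log2) on these 2 arrays, which covers the spotting and scanning and not the mice. Genes that mark the cochlea were well measured. The level of Coch, which encodes cochlin of the spiral ligament, was 6.06 and 5.95 in untreated and treated WT and 6.05 and 6.02 in untreated and treated Prestin-hDTR mice. Otos, for otospiralin, had a level of 7.20 and 7.41 in untreated and treated WT and 6.99 and 6.99 in untreated and treated Prestin-hDTR mice. Both lay within 1.5-fold across the arrays. Where 4 levels are given in a row below, they are those of untreated WT, treated WT, untreated Prestin-hDTR and treated Prestin-hDTR mice.

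Over the whole ranking, the middle of the distribution did not shift. The median log2 ratio of treated over untreated was -0.0042 across probes, and -0.44 and 0.53 marked the lowest and the highest 5 percent. In WT mice the same marks stood at -0.34 and 0.31 around a median of -0.027. Scaled to the spike-in probes, an alternative chosen after the data were seen, the medians were -0.00041 in Prestin-hDTR and 0.217 in WT mice. The upper tail was the longer in the Prestin-hDTR mice. There, 421 probes (1.74% of those measured) were 2-fold or more higher and 169 (0.698%) were 2-fold or more lower, against 186 (0.765%) and 79 (0.325%) in WT mice. At 4-fold the Prestin-hDTR counts were 59 higher and 26 lower, and at 8-fold 5 and 3. Counted by gene, 291 of 15552 (1.87%) were higher and 116 (0.746%) were lower.

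**Figure D1:**
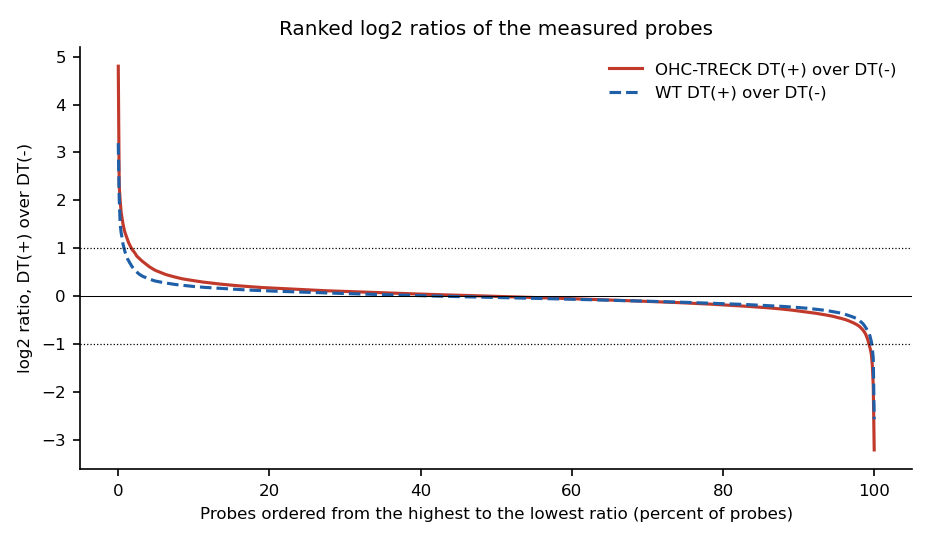
Log2 ratio of DT-treated over untreated (vertical axis) for every measured probe, ordered from the highest to the lowest (horizontal axis, percent of probes), in Prestin-hDTR (solid line) and WT mice (dashed line), with 1 array per group. The dotted lines mark 2-fold, and both curves are flat near 0 for most of their length and leave it only at the ends, the solid line further than the dashed line.

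Most of the changed probes were dim. With the measured probes split by level into 5 groups of equal size, the dimmest held 266 of the 421 higher and 88 of the 169 lower probes, and the brightest held 10 and 3. The SD of the log2 ratio fell along the same order from 0.54 to 0.20. Requiring on both arrays the level of -5.44 that the treated array needed left 291 probes higher and 169 lower, an alternative chosen after the data were seen. Called lower probes passed that limit by construction, so all 130 called probes that it removed were higher probes. Brighter genes in both tails included Lgals3, Cldn22, Timp1 and Tnfrsf12a among the higher and Ocm, Tcap and Chrna10 among the lower genes.

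**Figure D2:**
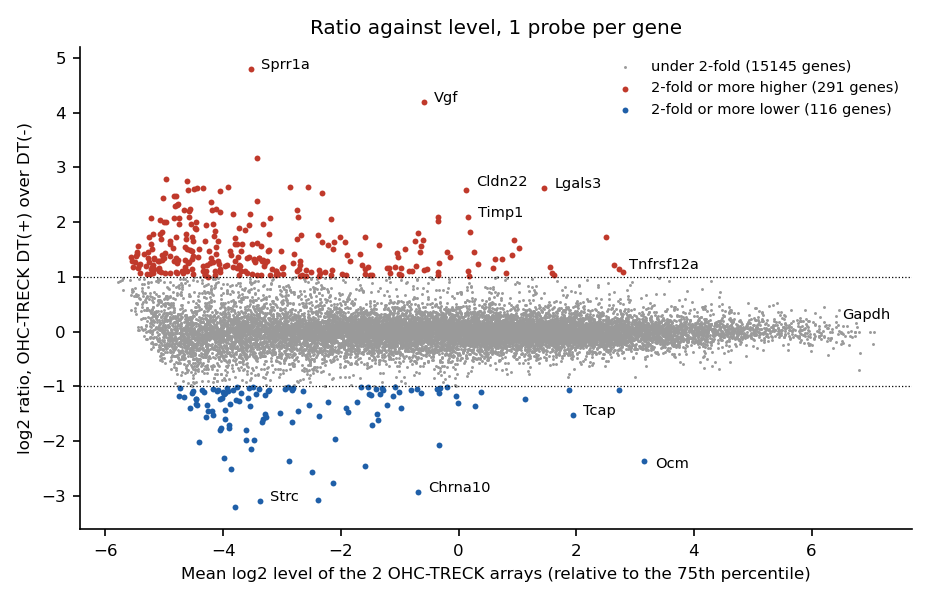
Log2 ratio of treated over untreated Prestin-hDTR cochlea (vertical axis) against the mean log2 level of the 2 arrays (horizontal axis), 1 point per gene and 1 array per group. The 291 higher genes (red) crowd at low levels, while Sprr1a and Vgf stand above the rest and the lower genes (blue) reach up to Ocm at a mean level above 2.

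Of the 38 gene lists, the hair bundle and outer hair cell lists held the most lower genes. The targeted gene itself was too dim to follow. Slc26a5 was well above background on 3 arrays, at -4.89, -4.47 and -5.06, and its level on the treated Prestin-hDTR array, -6.07, was not well above background, which bounds it only as at least 1.31-fold lower. From bulk cochlear RNA alone, fewer cells of a type and less RNA per cell cannot be told apart. For outer hair cells, the study's cell counts found nearly all of them lost in treated Prestin-hDTR mice by the time of dissection. Its counts of inner hair cells and neighbouring supporting cells were not significantly changed. All 11 measured genes of the outer hair cell list were lower in the treated array, 6 of them by 2-fold or more against 0.746% of all genes, with a median log2 ratio of -1.05 where the median of all genes was -0.00. In WT mice the list's median was 0.02, and 0 of the 11 passed 2-fold.

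Ocm, which encodes the calcium buffer oncomodulin, had levels of 4.36 and 4.21 in untreated and treated WT and 4.35 and 1.97 in untreated and treated Prestin-hDTR mice. The 3 control arrays lay within 0.15 log2 units of each other and the treated Prestin-hDTR array lay 5.18-fold below its own control. The probe sits at chr5:144780676-144780735 (mm9), and a second Ocm probe gave a log2 ratio of -2.53. Strc, the gene for stereocilin, which links stereocilia to each other and to the tectorial membrane, had levels of -2.03, -1.87, -1.83 and -4.93 and was 8.57-fold lower. Both efferent receptor subunits followed. Chrna10 stood at 0.39, 0.66, 0.77 and -2.16, and was 7.64-fold lower. For Chrna9 the levels were -1.24, -0.89, -0.74 and -3.52, a 6.83-fold difference, though a second, dimmer Chrna9 probe gave only -0.12. The mechanotransduction channel gene Tmc1 had levels of -0.97, -0.74, -0.64 and -2.15 and was 2.85-fold lower. In each of these genes 3 arrays ran together and the treated Prestin-hDTR array stood alone. Calb1, the gene for calbindin, did not have that form. Its levels were -1.54, -2.42, -2.30 and -3.35, with a log2 ratio of -1.05 in Prestin-hDTR and -0.88 in WT mice. The 5 other outer hair cell genes lay under 2-fold, and among them Kcnn2, Ikzf2, Lbh and Sri had log2 ratios between -0.14 and -0.01.

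Genes of the hair bundle and its transduction machinery, which inner hair cells also use, were lower in 21 of 25 cases, 7 of them by 2-fold or more, with a median log2 ratio of -0.45 against 0.10 in WT. Myo15, the motor that carries its cargo to stereocilia tips, had levels of -0.93 and -0.34 in untreated and treated WT and -0.36 and -2.82 in untreated and treated Prestin-hDTR mice and was 5.51-fold lower. Pjvk, for pejvakin, had levels of -0.98, -0.70, -0.56 and -2.17 and was 3.05-fold lower. Tomt, which brings the channel to the bundle, was 2.94-fold lower at levels of -3.93, -3.57, -3.52 and -5.07. The remaining called members were Grxcr2 (-1.45), Grxcr1 (-1.18), Clrn2 (-1.08) and Fscn2 (-1.08), all log2 ratios, and none of the 7 passed 2-fold in WT mice. Ptprq, a bundle phosphatase, was bounded as at least 3.06-fold lower by the brighter of its 2 probes. That probe had levels of -4.89, -3.51, -3.53 and -5.14, the last not well above background. Treated WT mice thus exceeded untreated WT mice, whose level lay near that of treated Prestin-hDTR mice.

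Of 10 measured hair cell transcription factor genes, 4 were 2-fold or more lower and the list median was -0.02, or -0.50 with all measured probes of a gene averaged. Gfi1 had levels of -0.34, 0.59, 0.71 and -1.37, Lhx3 of -2.06, -1.19, -1.12 and -3.08 and Pou4f3 of -2.68, -2.49, -2.49 and -4.05, and they were 4.23-fold, 3.90-fold and 2.94-fold lower. Pou4f3 was nearly level across the other 3 arrays. Gfi1 and Lhx3, in contrast, were also higher in treated than in untreated WT mice, by 0.93 and 0.86 (log2), just under 2-fold. Rbm24, a splicing regulator of hair cells, was 2.21-fold lower. The 2 measured Barhl1 probes disagreed, with log2 ratios of 0.11 for the brighter one and -1.96 for the other. The brighter one stood for the gene in the counts, and no direction is taken from these 2 probes. The study listed Barhl1 among deafness genes more than 2-fold lower, and reported these genes as significantly lower by quantitative RT-PCR. Eya1 had a log2 ratio of 0.02.

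The inner hair cell and ribbon synapse list had no member past 2-fold. Its values nevertheless leaned downward, with 12 of 13 genes lower and a median log2 ratio of -0.21. Slc17a8, which loads glutamate into inner hair cell vesicles, had levels of -1.54, -1.72, -1.67 and -2.08, a 1.33-fold difference. Cabp2 (-0.92) and Otof (-0.68), both needed for transmitter release, had the lowest log2 ratios on the list. In WT mice 8 of the 13 were higher. The supporting cell list also had 0 of 21 members past 2-fold, with a median of 0.14 and a range from -0.43 to 0.58. Sox2, the transcription factor of supporting cells, had levels of -1.69, -1.65, -1.53 and -1.68.

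**Figure D3:**
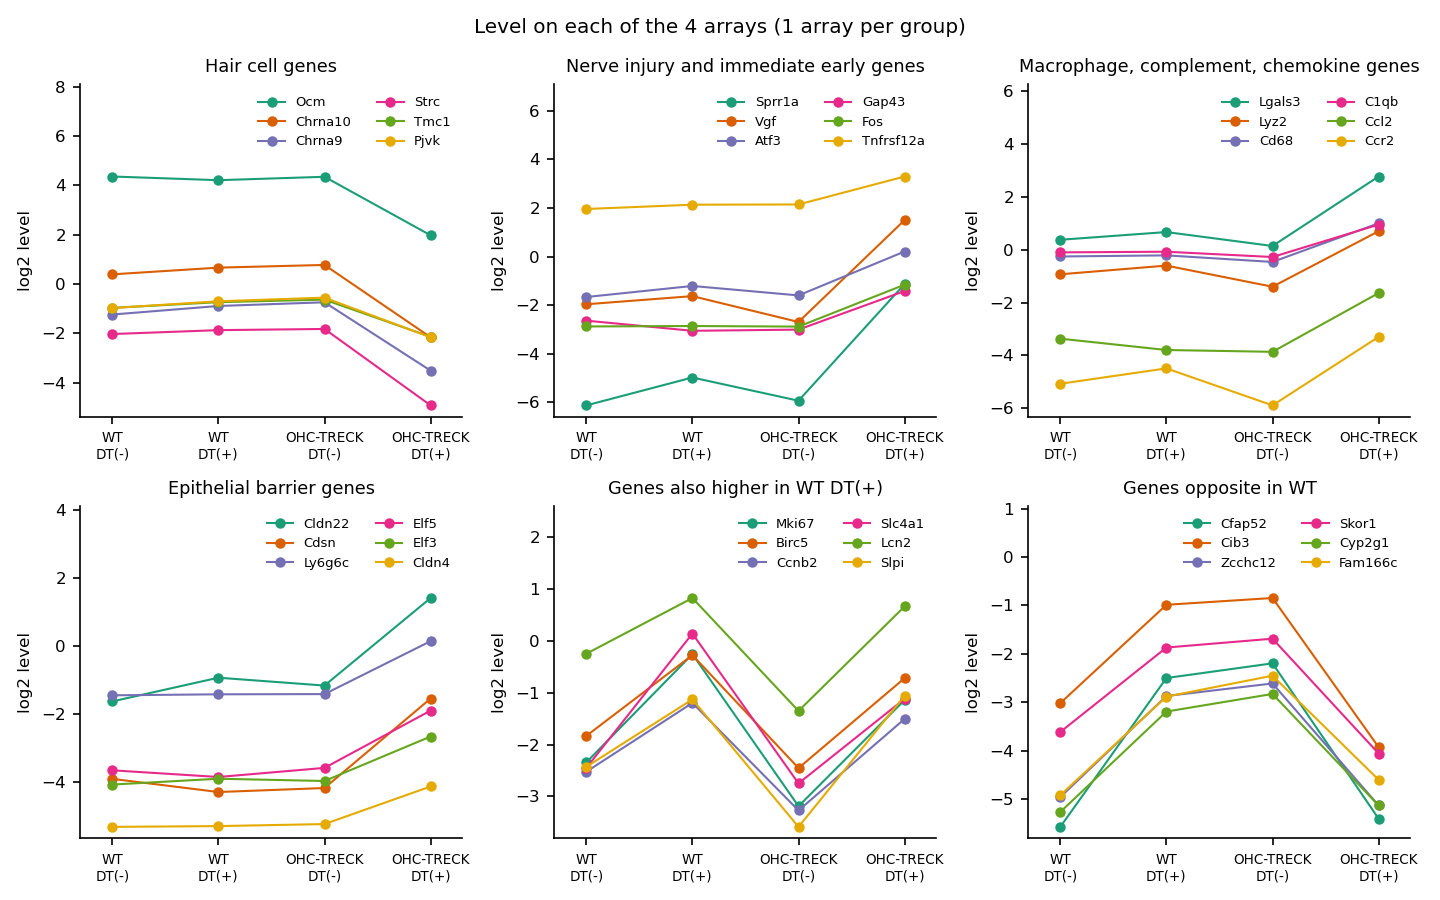
Log2 level (vertical axes) on each of the 4 arrays (horizontal axes, 1 array per group) for 6 genes of 6 groups, with lines only joining the arrays of 1 gene. In the first 4 panels the treated Prestin-hDTR array stands apart from the other 3, in the fifth both treated arrays are high, and in the sixth the treated WT array and the untreated Prestin-hDTR array are high together.

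The 2 highest ratios of the whole ranking were those of genes on the nerve injury list. Sprr1a, a small proline-rich protein of cornified epithelium that injured sensory neurons also make, had levels of -6.12, -4.98, -5.93 and -1.13 and was 27.9-fold higher in the treated array. The untreated WT array was not well above background for this probe, which lies at chr3:92287955-92288014 (mm9). The untreated Prestin-hDTR level of Sprr1a lay under -5.44, the lowest that passed on the treated array. Its ratio therefore rests on a dim control and is not measured under the common level limit. Vgf, a secreted neuropeptide precursor, had levels of -1.96 and -1.63 in untreated and treated WT and -2.69 and 1.5 in untreated and treated Prestin-hDTR mice and was 18.3-fold higher, with its probe at chr5:137509153-137509212 (mm9). Vgf exceeded every other array by over 3 log2 units. Of the 20 measured genes of the nerve injury list, 8 were 2-fold or more higher against 1.87% of all genes, 17 were above 0, and the median was 0.49 (0.12 in WT). Atf3, a transcription factor of axotomised neurons, had levels of -1.66, -1.21, -1.60 and 0.21. Gap43, a growth cone protein, had levels of -2.64, -3.05, -3.01 and -1.42. They were 3.50-fold and 3.01-fold higher. The cholecystokinin receptor gene Cckbr had a log2 ratio of 2.16, and the others called were Syt4 (1.36), Gadd45a (1.15) and Tnfrsf12a (1.15). In WT mice 0 of the 19 measured passed 2-fold.

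The 19 genes of the general neuronal list had a median log2 ratio of -0.22 in Prestin-hDTR and -0.25 in WT mice, with 0 called in either. Scaled to the spike-in probes, an alternative chosen after the data were seen, the WT median was -0.0012. Of 17 measured immediate early genes, 3 were called and 15 were above 0. Fos had levels of -2.88, -2.86, -2.88 and -1.16, Myc of -3.08, -3.12, -3.34 and -2.05 and Gem of -2.26, -2.29, -2.14 and -0.55. These were 3.31-fold, 2.44-fold and 3.0-fold higher, and the other 3 arrays differed by under 0.3 log2 units in each.

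Sprr1a was the top gene of the ranking, and its RefSeq promoter (GRCm38.p6) is shown because it holds 2 matches to the binding motif of AP-1, the factor that Fos and Atf3 belong to. The stretch runs at chr3:92485882-92486047 on the minus strand and ends at the base before the start site. Capitals mark TGANTCA, searched on both strands:
Sprr1a: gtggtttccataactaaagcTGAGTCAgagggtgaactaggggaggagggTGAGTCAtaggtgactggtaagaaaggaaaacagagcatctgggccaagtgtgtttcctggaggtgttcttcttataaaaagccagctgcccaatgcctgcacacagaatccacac
The motif occurs in 8.97% of the 27025 genes with a promoter window (250 bases before to 50 after the start), in 6.61% of the measured genes, and in 6 of 63 genes (9.52%) for which the treated Prestin-hDTR array exceeded both WT arrays too. The match is a description of these letters only.

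Of the 38 lists, the macrophage list held the most higher genes. Of the 27 measured, 13 were 2-fold or more higher, 24 were above 0, and the median log2 ratio was 0.93. In WT mice the median was -0.04 and 0 of 26 passed. Adgre1, which encodes the F4/80 antigen, had levels of -1.19, -1.17, -1.32 and -0.13 and was 2.28-fold higher. Cd68, a lysosomal protein of phagocytes, had levels of -0.26, -0.21, -0.46 and 1.0 and was 2.76-fold higher. Lyz2, for lysozyme, had levels of -0.93, -0.60, -1.40 and 0.70 and was 4.28-fold higher. The treated Prestin-hDTR array was the highest in all 3, and the other arrays lay within 1 log2 unit of each other. The other called members were Mpeg1 (1.68), Fcer1g (1.52), Ms4a6d (1.43), Ms4a7 (1.40), Cd33 (1.37), Cd84 (1.21), Tyrobp (1.18), Laptm5 (1.17), Cd14 (1.1) and Ctss (1.09), as log2 ratios.

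Phagocytes that take up cell debris switch on lipid-handling genes, and 6 of the 19 measured genes of that list were called. Lgals3, for galectin-3, had levels of 0.38 and 0.67 in untreated and treated WT and 0.14 and 2.77 in untreated and treated Prestin-hDTR mice and was 6.18-fold higher. Apoc2, an apolipoprotein that activates lipoprotein lipase, had levels of -3.67, -3.47, -3.88 and -1.23 and was 6.27-fold higher. Trem2, the receptor that senses lipids of dying cells, was 2.23-fold higher at levels of 0.22, 0.14, 0.01 and 1.17. Itgax (1.34), Clec7a (1.03) and Gpnmb (1.03) followed. The list median was 0.37 against 0.02 in WT.

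Chemokines and their receptors had 11 of 23 measured genes called higher and 1 lower, with a median of 0.89. The ligands that draw monocytes led. Ccl2 had levels of -3.37, -3.79, -3.86 and -1.64, and Ccl7 of -3.77, -4.45, -4.24 and -2.16, which made them 4.67-fold and 4.23-fold higher. Their receptor Ccr2, a monocyte marker, had levels of -5.07, -4.49, -5.89 and -3.30 and was 6.02-fold higher. Ccl3 (1.97) and Ccl4 (1.85), ligands made by macrophages, were higher as well. The study's quantitative RT-PCR found Ccl2, Ccl4 and Ccl7 significantly higher, but not Ccr2. Ccl8 (1.78), Ccl9 (1.51), Ccl12 (1.04), Ccl5 (1.08) and the interferon-induced Cxcl10 (1.46) completed the called ligands. Ccl3 and Ccl8 were not well above background on either WT array. Cxcl14, an epithelial chemokine, went the other way with levels of 0.23, 0.29, 0.55 and -0.63. Of the 19 cytokine genes listed, 9 were measured. Among those 9, only Il33, an alarmin of barrier cells, was called, and it was lower. Its levels were -0.96, -0.70, -0.77 and -1.90, a 2.2-fold difference.

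Complement genes had 5 of 15 called and 14 above 0, with a median of 0.73 (-0.03 in WT). C1qb and C1qc, which start the classical pathway, had levels of -0.10, -0.08, -0.28 and 0.95 and of 0.51 and 0.46 in untreated and treated WT and 0.26 and 1.34 in untreated and treated Prestin-hDTR mice. Their partner C1qa lay just under the limit at 0.99. Cfb of the alternative pathway (1.21), the receptor gene C3ar1 (1.26) and the integrin chain gene Itgb2 (1.17) were the others called. The regulators Cd55 (-0.04) and Cd59a (0.03) stayed near 0. Of 16 pattern receptor genes, 3 passed, Tlr6 (2.57), Tlr1 (1.20) and Nod2 (1.1), and both Tlr probes were dim, with the treated WT array not well above background.

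The interferon and antigen presentation lists had no member past 2-fold and yet ran almost entirely one way. In the interferon list, 19 of 20 genes were higher in the treated Prestin-hDTR array, 7 of them by 1.5-fold or more, with a median log2 ratio of 0.50. The most changed were Bst2 (0.82), Oas1a (0.79) and Mx1 (0.75). In WT mice 19 of the same 20 were lower, with a median of -0.22. Scaling to the spike-in probes instead raised every WT ratio by 0.24 and every Prestin-hDTR ratio by 0.0038, which put the WT median of this list at 0.02. Of 10 measured MHC class II and costimulation genes, 10 were higher, with H2-Ab1 (0.80), Cd86 (0.78), Cd74 (0.75) and H2-Aa (0.74) the highest and a median of 0.48. WT mice had a median of 0.17 there. Set beside these, 4.69% of all genes were 1.5-fold or more higher and 2.49% were 1.5-fold or more lower in Prestin-hDTR mice.

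Epithelial barrier genes were a further group of higher genes, with 8 of the 21 measured called and a median of 0.68 (0.11 in WT). Cldn22, a tight junction claudin, had levels of -1.63, -0.93, -1.16 and 1.42 and was 5.98-fold higher. Cdsn, which encodes corneodesmosin of cell adhesions in cornified epithelium, had levels of -3.91, -4.30, -4.18 and -1.55 and was 6.22-fold higher. Elf5 and Elf3, epithelial transcription factors, had levels of -3.66, -3.86, -3.59 and -1.90 and of -4.08, -3.91, -3.98 and -2.67. In each, the 3 other arrays lay within 1 log2 unit and the treated Prestin-hDTR array lay above them. Ly6g6c (1.56), Ivl (1.69) and Cldn4 (1.11) were also called, and Ivl was not well above background on either WT array. Cldn24, another claudin gene, was the third highest gene of the whole ranking, with levels of -6.72, -4.86, -5.02 and -1.84.

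The matrix list had 5 of 25 genes called higher and a median of 0.20. Loxl4, a collagen crosslinker, had levels of -3.81, -3.49, -4.62 and -2.24, and its probes gave log2 ratios from 1.1 to 2.38. The proteoglycan genes Prelp (1.83) and Kera (1.13) and the genes Matn1 (1.33) and Ecm1 (1.01) were the others. Timp1, an inhibitor of matrix proteases from the reactive glia list, was brighter, with levels of -0.65, -0.82, -0.89 and 1.21 and a 4.30-fold difference. Osmr, the receptor for oncostatin M, had levels of -0.79, -0.86, -0.95 and 0.30 and was 2.38-fold higher. Of 28 Wnt pathway genes, Wnt2, a ligand, and Lgr6, a receptor for R-spondins, were called. Their levels were -4.96 and -4.76 in untreated and treated WT and -5.68 and -3.43 in untreated and treated Prestin-hDTR mice and -4.76, -4.79, -4.90 and -2.76. Both were dim in the control arrays, and the study's quantitative RT-PCR found no significant rise of Wnt2. The Notch list had 0 of 16 called, and its lowest members were Notch1 (-0.78) and Hes5 (-0.71).

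Genes of the toxin's own path stayed within 1.5-fold. The 11 measured members had a median of 0.06, and Eef2 had levels of 4.55, 4.53, 4.55 and 4.54. Mouse Hbegf, the endogenous counterpart of the transgene's product, had levels of -1.5, -1.75, -1.46 and -0.89, a 1.48-fold difference. Cell death genes were mostly level. Of 25 measured, Pmaip1, which encodes the BH3-only protein Noxa, and Bcl2a1d, a survival factor of leukocytes, were called, at levels of -5.20, -5.19, -5.34 and -3.69 and -1.24, -1.49, -1.45 and 0.23. Bax (-0.25) and Casp9 (-0.09) were not. The stress list had 0 of 27 called and a median of -0.02, and the 12 reference genes had a median of 0.09 with Gapdh at 6.41, 6.16, 6.37 and 6.46.

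In further tissue and cell type lists few genes were called. In the Schwann cell list only Olig2 was called, with levels of -4.39, -5.22, -4.67 and -2.79. The stria vascularis and lateral wall list had 17 of 20 genes above 0, a median of 0.26 and 1 call, Ltf, which is also a neutrophil gene. In T and NK cell genes Cd28 alone was called (1.96). Of 11 skeletal muscle genes, the sarcomere genes Tcap and Lmod3 were called, with levels of 2.79, 2.59, 2.70 and 1.18 and -0.97 and -1.0 in untreated and treated WT and -0.91 and -2.06 in untreated and treated Prestin-hDTR mice. The study discussed Tcap as a candidate gene for hearing loss. The median of the muscle list was -0.36, with 9 of the 11 genes lower, 4 of them by 1.5-fold or more, and the fast muscle genes Tnni2 (0.41) and Atp2a1 (0.02) the 2 that were not. In the secretory epithelium list, Bpifa1, an airway and middle ear secretion, had levels of 1.16, 1.96, 0.65 and -0.66, so that the treated WT array was the highest and the treated Prestin-hDTR array the lowest. Osteoblast genes had 0 of 14 called and a median of -0.18, with Bglap (-0.83) the lowest.

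**Figure D4:**
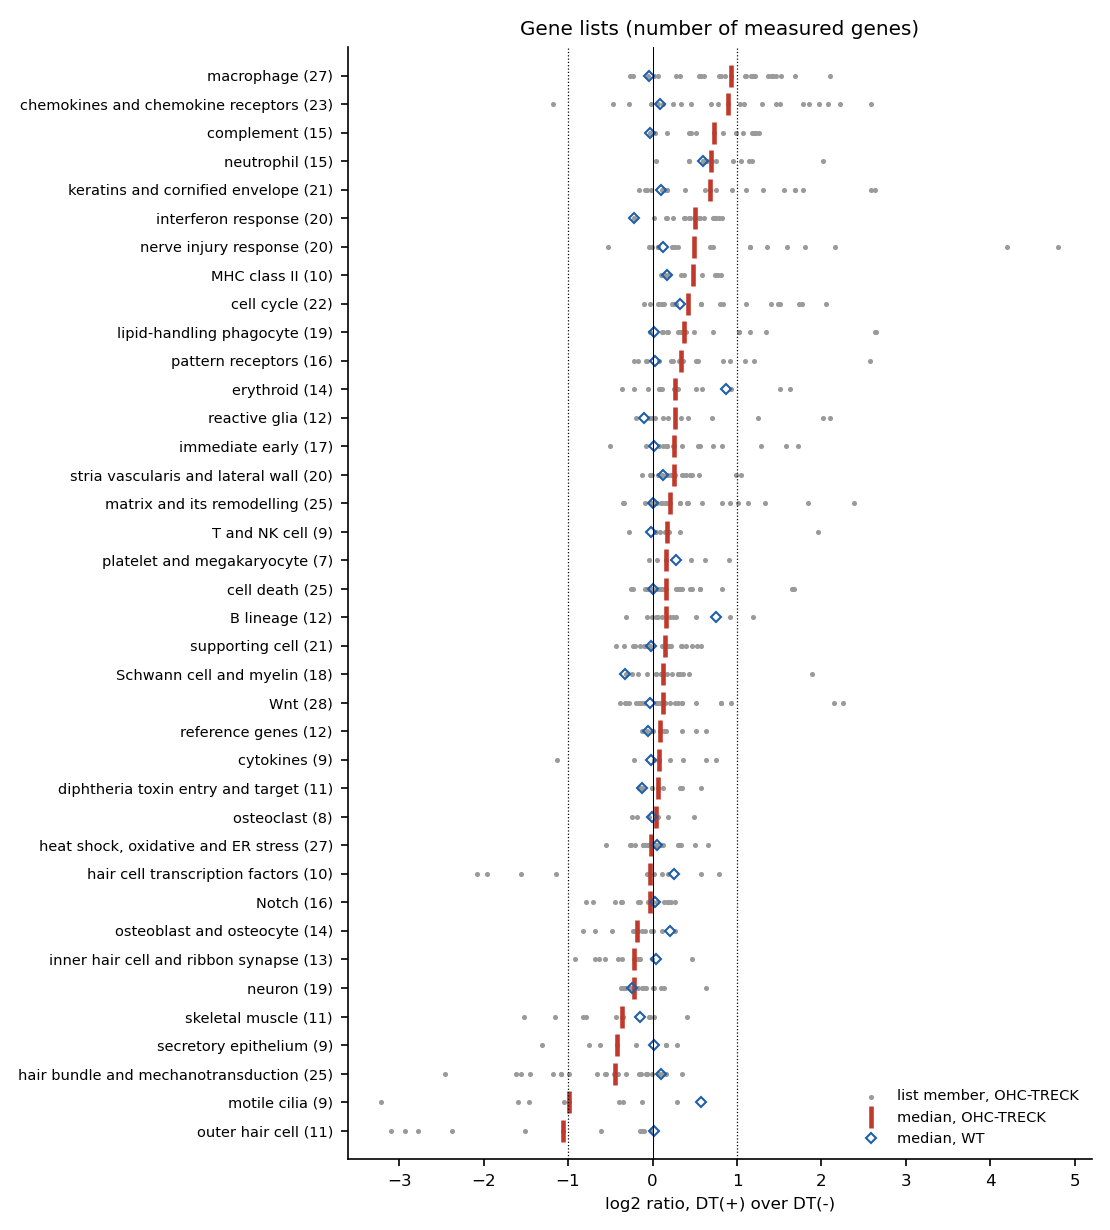
Log2 ratio of treated over untreated (horizontal axis) for 38 gene lists (vertical axis, number of measured genes in parentheses), with grey points for single genes and red bars for the list median in Prestin-hDTR mice and blue diamonds for the list median in WT mice, 1 array per group. The macrophage, chemokine and complement medians lie to the right with WT near 0, the outer hair cell median lies at the far left, and the neutrophil, erythroid, B lineage and motile cilia lists are those where the WT median is itself far from 0.

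Part of the ranking was shared with DT-treated WT mice, which bear no human receptor. The 2 comparisons have no array in common, although all 4 arrays lay on 1 slide. Across the 23688 probes measured on all 4 arrays, Pearson's r between the log2 ratios was 0.17, as a description over probes that are not independent. Of the 291 genes higher in Prestin-hDTR mice, 212 were measured in both WT arrays, and 33 of these (15.6%) were 2-fold or more higher in WT mice too, where the share among all genes was 0.72%. Those 33 were 30% of the 110 genes that were higher in WT mice. Of the 116 lower genes, 114 were measured, and 2 (1.75%) were lower in WT mice, where the share among all genes was 0.216% and the list held 33 genes. In WT mice, 147 of the 212 higher and 80 of the 114 lower genes were within 1.5-fold. Nearly all probes were within it there: of 24328 measured, 487 were 1.5-fold or more higher and 351 were 1.5-fold or more lower.

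Of the 33 genes higher in both genotypes, 12 belonged to 4 of the lists, with 6 in the cell cycle, 3 in the neutrophil, 2 in the erythroid and 1 in the B lineage list. Of the 22 measured cell cycle genes, 7 were called in Prestin-hDTR mice and 6 in WT mice, with medians of 0.42 and 0.32. Mki67, a nuclear protein of cycling cells, had levels of -2.35, -0.26, -3.19 and -1.14. Birc5, for survivin, had levels of -1.83, -0.28, -2.46 and -0.72, and a second Birc5 probe gave a log2 ratio of 0.59 in Prestin-hDTR mice, under 2-fold. Ccnb2, a mitotic cyclin, had levels of -2.53, -1.20, -3.27 and -1.51. In all 3 the treated array was the higher one within each genotype, and the untreated Prestin-hDTR array was the lowest of the 4. Prc1 (2.10 in Prestin-hDTR and 1.03 in WT), Ube2c (1.97 and 1.45), Rrm2 (1.41 and 1.55), Ccna2 (1.49 and 1.24) and Ccnb1 (1.5 and 1.21) had the same form, and Cdk1 passed only in Prestin-hDTR mice (1.11 and 0.84), with no test of that difference. Cdca3, Cdca5, Cdkn3, Nusap1, Uhrf1, Arhgef39 and Tk1 were further genes of division or DNA synthesis called in both, with log2 ratios between 1.14 and 1.66 in Prestin-hDTR mice, although a second Tk1 probe gave 0.47.

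Promoters of 4 of these genes are shown because they share a pair of motifs known from cell cycle genes, the CCAAT box and the cell cycle homology region (CHR, TTTGAA). The sequences are from RefSeq (GRCm38.p6): Ccnb2 at chr9:70421555-70421741 and Mki67 at chr7:135716380-135716587 on the minus strand, and Ube2c at chr2:164769681-164769928 and Prc1 at chr7:80294394-80294475 on the plus strand. They end at the base before the start site, and carry in capitals each match on either strand (ATTGG and TTCAAA are the reverse complements):
Ccnb2: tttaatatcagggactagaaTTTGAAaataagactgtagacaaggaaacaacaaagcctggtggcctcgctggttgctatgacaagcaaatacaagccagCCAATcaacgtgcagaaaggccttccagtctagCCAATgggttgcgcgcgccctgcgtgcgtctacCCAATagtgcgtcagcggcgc
Ube2c: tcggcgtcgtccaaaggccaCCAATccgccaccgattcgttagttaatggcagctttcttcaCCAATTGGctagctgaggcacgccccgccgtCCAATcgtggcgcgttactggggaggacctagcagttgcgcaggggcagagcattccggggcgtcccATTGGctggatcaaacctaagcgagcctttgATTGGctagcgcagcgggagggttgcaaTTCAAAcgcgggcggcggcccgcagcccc
Mki67: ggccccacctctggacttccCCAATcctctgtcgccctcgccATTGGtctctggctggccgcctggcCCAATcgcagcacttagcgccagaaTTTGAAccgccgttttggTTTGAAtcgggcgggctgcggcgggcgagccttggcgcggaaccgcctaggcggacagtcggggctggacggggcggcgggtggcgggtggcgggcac
Prc1: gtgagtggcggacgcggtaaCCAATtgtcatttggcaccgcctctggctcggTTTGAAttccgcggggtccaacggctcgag
Neighbouring CCAAT boxes can overlap, as in Ube2c. Prc1 has another RefSeq start site, for which the stretch before it ends at chr7:80294450. Only the CCAAT box lies complete before that site, and TTTGAA does not. Of the 33 genes higher in both comparisons, 26 had a promoter window, and 9 (34.6%) held TTTGAA and 17 (65.4%) held CCAAT. Among all measured genes with a window the shares were 14.6% and 42.2%, and among the 63 higher genes that exceeded both WT arrays 19.0% and 39.7%. These shares describe the letters and were not tested.

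Neutrophil genes were higher in 15 of 15 cases in both genotypes. Their medians were 0.69 and 0.60, with 4 called in each. Lcn2, an iron-binding protein of neutrophils and injured epithelia, had levels of -0.25, 0.83, -1.35 and 0.66. Cd177 and Slpi lay outside the list. Cd177, a neutrophil surface antigen, had levels of -5.54, -4.45, -6.37 and -3.58. Slpi, a protease inhibitor, had levels of -2.43, -1.13, -3.59 and -1.06. S100a8, among the most abundant neutrophil transcripts, had levels of 3.15, 3.81, 1.53 and 2.29. The untreated Prestin-hDTR array was the lowest in all 4 of these genes, and for Lcn2 and S100a8 the treated Prestin-hDTR array did not exceed the treated WT array. Mpo (1.18), Retnlg (1.14) and Ltf (1.05) were the other called neutrophil genes.

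Erythroid and B lineage genes were more changed in WT mice. The erythroid list had medians of 0.27 in Prestin-hDTR and 0.87 in WT mice, with 2 and 5 of 14 called. Slc4a1, the anion exchanger of red cells, had levels of -2.45 and 0.14 in untreated and treated WT and -2.75 and -1.12 in untreated and treated Prestin-hDTR mice. Kel, a blood group antigen, had levels of -5.46, -2.27, -5.37 and -3.87, and Rhd, another, of -2.71, -0.32, -3.56 and -1.80. All 3 were highest on the treated WT array. The B lineage list had medians of 0.16 and 0.76, with 1 of 12 called in Prestin-hDTR mice (Ms4a1, 1.19) and 5 in WT mice. Spib, a transcription factor of B and dendritic cells, was called in both (1.71 and 1.09). The macrophage median in WT mice was -0.04. The part of blood and marrow content in the cell cycle, neutrophil and macrophage differences was not tested. The 2 genes lower in both comparisons were Phtf1os, with levels of -2.50, -4.04, -2.61 and -4.60, and Xlr4a, with levels of -2.82, -4.01, -3.15 and -4.95.

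In all, 12 genes changed 2-fold or more in opposite directions in the 2 genotypes, 9 of them lower in Prestin-hDTR and higher in WT mice. Cfap52, a protein of motile cilia, was the lowest gene of the whole ranking, with levels of -5.58, -2.50, -2.20 and -5.41, and its probe lies at chr11:67738471-67738530 (mm9). It was 9.25-fold lower in treated Prestin-hDTR mice and 8.43-fold higher in treated WT mice. Cib3, a calcium-binding partner of the transduction channel in vestibular hair cells, had levels of -3.02, -0.99, -0.85 and -3.93. Skor1, a transcriptional corepressor, had levels of -3.62, -1.87, -1.69 and -4.06, and a second probe gave -2.54 in Prestin-hDTR mice. In each the untreated WT array and the treated Prestin-hDTR array were low together and the 2 others were high together. Zcchc12 had levels of -4.96, -2.87, -2.61 and -5.13, Cyp2g1 of -5.27 and -3.19 in untreated and treated WT and -2.83 and -5.13 in untreated and treated Prestin-hDTR mice and Fam166c of -4.92, -2.88, -2.45 and -4.60. Fam183b (-2.57 and 1.23), Maats1 (-2.01 and 1.17) and Mlf1 (-1.59 and 1.1) completed the 9. For none of them did the treated Prestin-hDTR array lie 2-fold below both WT arrays.

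The motile cilia list as a whole ran this way. Its 9 measured genes had medians of -0.99 in Prestin-hDTR and 0.57 in WT mice, with 4 and 2 called. Dynlrb2 had levels of -2.22, -1.25, -1.15 and -2.61, Cfap126 of -0.70, -0.13, 0.16 and -0.89 and Tekt1 of -1.86, -1.09, -0.94 and -1.93. Foxj1, the master regulator of motile ciliogenesis, did not share the difference at -1.35, -1.56, -1.35 and -1.70. Genes of the vestibular organs, looked at after these values were seen, were mixed. Otol1, an otoconial matrix gene, had levels of -6.47, -3.23, -3.05 and -4.08 and was not well above background on the untreated WT array. Oc90 at -4.32, -4.77, -4.44 and -4.27 and Otop1, whose brighter probe stood at 0.07, -0.24, -0.06 and -0.02, were nearly level, as was Anxa4 at 1.04, 1.03, 1.02 and 1.32. Tmc2 and Zpld1 were each well above background on 2 arrays or fewer. Tecta, for alpha-tectorin, was well above background only on the treated WT array (-4.25) and the untreated Prestin-hDTR array (-4.79). Gfi1 and Lhx3, given above, had the same signs, with WT ratios just under 2-fold. In both, unlike in the 9 opposite genes, the treated Prestin-hDTR array lay 2-fold or more below both WT arrays. What part the vestibular portion of a dissection had in these genes was not tested.

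Setting all 4 arrays side by side separated the called genes by form. Among the 212 higher genes measured everywhere, the treated Prestin-hDTR array exceeded both WT arrays by 2-fold or more in 83, the untreated Prestin-hDTR array lay 2-fold or more below both WT arrays in a further 15, and 114 fitted neither. Among the 114 lower genes the counts were 31, 4 and 79. These counts share the treated or the untreated Prestin-hDTR array with the ratio that called the genes, and are a description. The 83 held Vgf, Lgals3, Timp1, Atf3, Fos and Gap43 from the groups above, together with Ddx43 (2.75), an RNA helicase, Sirpb1b (2.63), a myeloid receptor whose probes ranged down to 0.81, and Gm10433 (2.60). In the study's quantitative RT-PCR, Vgf, Lgals3 and Sirpb1b were significantly higher, and Ddx43 and Gm10433 could not be detected. The 31 held 13 hair cell genes of the 3 lists above, with Strc, Chrna10, Chrna9, Myo15 and Ocm the lowest, and Ppp1r17, a phosphatase inhibitor, with levels of -2.42, -2.6, -2.48 and -4.46. Slpi, Lcn2, Spib, Mpo and Ltf were in the 15, of which 6 were also 2-fold or more higher in WT mice. Snora47, a small nucleolar RNA, and 4930444P10Rik were in the 4, with levels of -4.02, -3.78, -2.72 and -4.51 and -4.69, -4.42, -3.16 and -4.93.

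**Figure D5:**
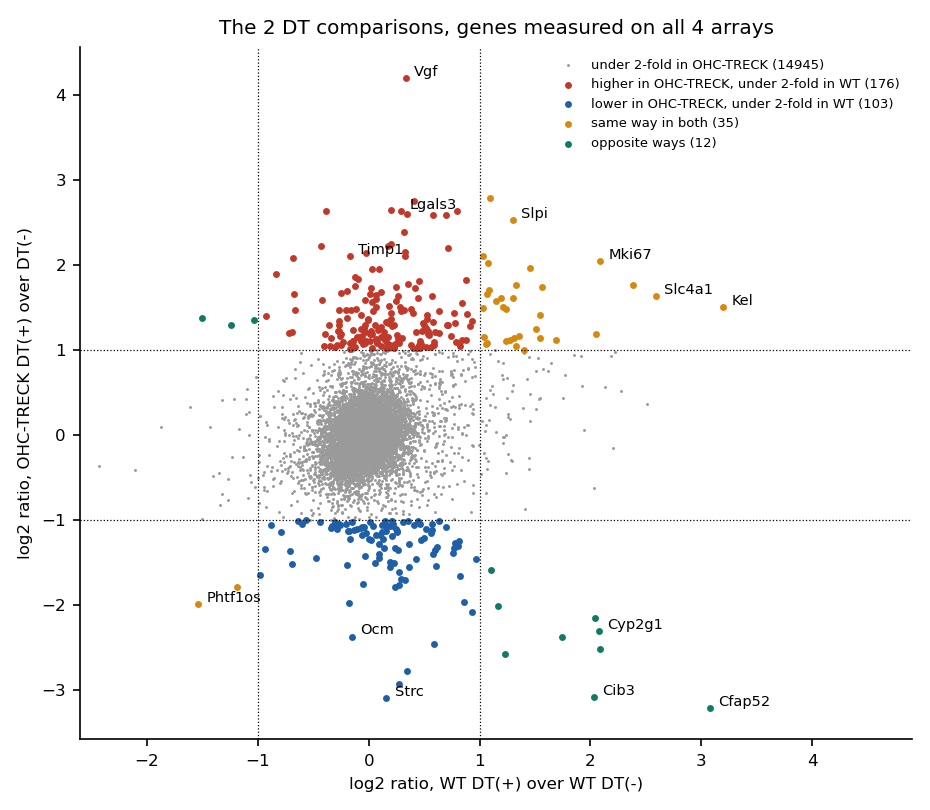
Log2 ratio of treated over untreated in Prestin-hDTR mice (vertical axis) against the same ratio in WT mice (horizontal axis), 1 point per gene measured on all 4 arrays and 1 array per group, with dotted lines at 2-fold. Most called genes lie in the vertical band around 0 in WT (176 higher and 103 lower), 35 lie in the same-way corners (orange) and 12 in the opposite corners (green).

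Of the 20 highest genes, 8 were not measured in both WT arrays. Chsy3 (2.62), St6galnac3 (2.44) and Tlr6 were well above background only on the untreated of the 2 WT arrays. Olfr114 (2.65), Slc2a7 (2.49) and Tpsab1, a mast cell tryptase (2.48), were well above background on neither. Further down, the ranking flattened quickly. The 50th gene from the top was Rln1 at 1.97, the 100th Ly6g6c at 1.56, the 200th Olfr275 at 1.18, the 500th Ear1 at 0.75 and the 1000th Fadd at 0.46. From the bottom the same places were held by Kif6 (-1.33), Cfap126 (-1.05), Rasgrp2 (-0.78), Cbln1 (-0.53) and Negr1 (-0.39). The 2-fold limit was passed between the 200th and the 500th gene on the upper side and between the 100th and the 200th on the lower side. Ear1, an eosinophil ribonuclease, was higher in WT mice as well (1.62), and Cbln1, a synaptic organiser, was lower in WT mice as well (-0.50).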

How the data were processed

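For each group, RNA from the cochleae of 8 mice was pooled and measured on 1 Agilent mouse array in the Cy3 channel. The authors extracted features with Agilent Feature Extraction 11.5.1.1, and the deposited scanner files hold spot intensities (gProcessedSignal, background-subtracted) with flags. The deposited table of the series holds intensities divided by 1 constant per array, with column medians of 0.0828 to 0.0865, and served as an alternative. Its scale is linear and its direction is that of the signal.

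Spots with an outlier flag and control spots were left out, the mean over the remaining spots was taken as the signal of a probe, and signals were divided by their array's 75th percentile before log2 (Python 3.11.15, pandas 2.3.3). A probe counted as measured where more than 0.5 of its spots were well above background. No spot was saturated. Probes were named through RefSeq symbols, accessions or synonyms (29803, 1635 and 295 probes), and 7696 kept the file's name and entered no gene count. Probe positions are the file's own (mm9), and whether they lie in an exon or another part of a gene was not looked up. The number of arrays, 1 per group, limits the precision, and no test was run. Calls were checked on simulated data, with changes well past the limit and noise like that of repeated spots. That check covers the calling step and not differences between mice.

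The members, the 38 gene lists and the alternatives were chosen with earlier results of these data known. Genes named were the 20 highest and 20 lowest, the 10 furthest each way among called genes for which the treated Prestin-hDTR array was not 2-fold beyond both WT arrays, those at ranks 50, 100, 200, 500 and 1000 from either end, up to 10 each way called also in WT mice, up to 10 called in opposite directions, list members past 2-fold, and 11 marker genes fixed by name. List members under 2-fold, the vestibular genes, further genes called in both genotypes and genes given with their promoters were picked after their values were seen. Some genes that the rule covers are not reported here. Alternatives were normexp background correction (limma 3.58.1, offset 50), scaling to the median, quantile normalization, a background filter on all 4 arrays, no filter with a floor, the deposited table, the mean of a gene's probes, a limit of 1.5-fold, and 2 added after the data were seen, 1 common level limit and scaling to 8 of the 10 spike-in probes.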

Additional observations from a re-analysis of the deposited data

Results flagged for a closer look

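The genes below were 2-fold or more apart between treated and untreated mice in one direction in Prestin-hDTR and in the other direction in WT mice. With 1 array per group the difference between the genotypes was not tested. As log2 ratios, 9 genes were lower in Prestin-hDTR and higher in WT mice. Cfap52 had -3.21 in Prestin-hDTR and 3.07 in WT mice. For Cib3 the values were -3.08 and 2.03. Fam183b had -2.57 and 1.23, and Zcchc12 had -2.52 and 2.09. Skor1 stood at -2.37 and 1.75. Cyp2g1 had -2.30 and 2.08, and Fam166c had -2.15 and 2.04. Maats1 stood at -2.01 and 1.17, and Mlf1 at -1.59 and 1.1. The reverse was seen in 3 genes. 1700102J08Rik had 1.37 in Prestin-hDTR and -1.51 in WT mice, Cybb, a subunit of the phagocyte oxidase, had 1.35 and -1.04, and Gm4841 had 1.30 and -1.24. Cybb and Gm4841 lay beyond the 10 genes that the naming rule covers and were added after their values were seen.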

How the results depend on the processing

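Each group was 1 array, so no array could be left out and no error set. No paired analysis was possible because each group held 1 array and the groups shared only the number 1. The counts were the part that depended on the settings. Normexp background correction, which pulls dim signals together, gave 247 higher and 82 lower probes in Prestin-hDTR mice (against 421 and 169) and 94 and 26 in WT mice (against 186 and 79). Under it, 23 probes were higher and 1 was lower in both genotypes (against 43 and 4), 0 were higher in Prestin-hDTR and lower in WT mice (against 4), 71 higher probes lay beyond both WT arrays (against 109), and the untreated Prestin-hDTR array was apart from both WT arrays for 6 higher and 1 lower probes (against 23 and 13). Without a background filter, and with signals floored, the counts were 757 and 378 in Prestin-hDTR and 391 and 291 in WT mice, 66 and 23 in both, and 26 and 38 in opposite directions, with 271 higher probes beyond both WT arrays and the untreated array apart for 43 and 126. Scaling to the spike-in probes gave 322 and 35 in WT mice, 2 lower in both, and 1 and 22 in opposite directions. At 1.5-fold the counts were 1070 and 584 in Prestin-hDTR and 487 and 351 in WT mice. The cause of these shifts was not tested. Scaling to the median, quantile normalization, the filter on all 4 arrays, the deposited table and the common level limit kept every count within 1.5 times.

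Directions were steadier. Under the alternatives run, no named gene past 2-fold in Prestin-hDTR mice changed sign there, and of the list medians in these mice only that of the stress list did, from -0.017 to 0.0049 with normexp. Eef2, near 0, moved from -0.0051 to 0.0097 with the deposited table. Of the 141 named genes past 2-fold, 21 fell under 2-fold with normexp and 1 with quantile normalization, and 17 could not be measured under the common level limit and 16 under the filter on all 4 arrays. The median of the nerve injury list fell from 0.49 to 0.30 under both filters, that of the skeletal muscle list moved from -0.36 to -0.15 with normexp, and that of the outer hair cell list from -1.05 to -0.89.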
